A study of Mus musculus with 9 samples.

Results

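The TNF superfamily of ligands and receptors was followed across livers of 3 mouse genotypes. Its members were selected by gene symbol: every array probe set annotated to exactly 1 gene whose symbol begins with Tnfsf or Tnfrsf and a digit, together with Tnf, Lta, Ltb, Ltbr, Fas, Fasl, Cd27, Cd40, Cd40lg, Cd70, Ngfr and Edar, with the brightest probe set kept for each gene. This gave 41 members, each with 1 probe set, among 19938 genes with such a probe set and 28939 probe sets tested. By role they are 15 ligands, 7 death domain receptors, 15 receptors that bind TRAF adaptors without a death domain, and 4 decoy or other receptors. Tnfsf12 and Tnfsf13, which encode TWEAK and APRIL, share a joint annotation with the read-through gene Tnfsfm13 and are therefore not members. Eda2r, a receptor for ectodysplasin, is also left out by the selection rule, and its values are given beside the comparison of the knockout groups.

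TNF superfamily ligands are trimeric proteins, mostly made on the cell surface and released from it by proteases, and they signal by clustering their receptors. Receptors with a cytoplasmic death domain can start apoptosis or necroptosis, whereas others recruit TRAF adaptors and activate NF-kB and MAP kinases. Ikbkg encodes NEMO, a non-catalytic subunit that the IkB kinase complex needs for the canonical NF-kB arm and without which hepatocytes become sensitive to TNF-induced death.

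Total liver RNA of male mice, 8 to 9 weeks of age, was hybridised to 9 single-channel gene arrays. The groups of 3 were C57/BL6 wild type mice, mice with a hepatocyte-specific NEMO knockout, and mice from a cross of that knockout with a constitutive p21-/- line, labelled as lacking NEMO in hepatocytes and p21 throughout. All were fed standard chow, the knockouts carry the same C57/BL6 background in the labels, and no group lacked p21 alone. The driver of the hepatocyte-specific deletion is not given in the labels, and by that label the other cells of these livers keep NEMO. The arrays bear separate animal identifiers but are not otherwise described as separate animals, so p-values measure the spread between these samples.

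The log2 signal of Ikbkg was 8.87 ± 0.13 in wild type and lower in both knockouts, at 8.35 ± 0.12 with the single and 8.27 ± 0.18 with the double knockout (SD, n = 3 each). The probe set that covers Cdkn1a, the p21 gene, together with 4930567H12Rik went against its label: it read 8.54, 9.64 and 7.83 in wild type and 11.14, 10.14 and 11.06 in the double knockout, a difference of 2.11 (SE 0.45, limma adjusted p = 0.0194). Whether its probes lie in the deleted part is not known here, and the third group is called the labelled double knockout throughout. The 5 measured hepatocyte markers had a mean log2 signal between 13.24 and 13.32 on all 9 arrays, as the tissue label says. Of 9 macrophage markers, 8 were higher than wild type in each knockout group, with array means of 7.84 to 7.96 in wild type, 8.77 to 8.98 in the NEMO knockout and 8.76 to 8.90 in the labelled double knockout. Of 7 stellate cell markers, 5 were higher in each, with array means of 8.22 to 8.36, 9.07 to 9.34 and 9.08 to 9.24. Other marker lists also lay above wild type in the NEMO knockout without overlap of the array means. These were NK cell markers (2 of 6 called higher, 5.004 to 5.05 in wild type and 5.21 to 5.69), T cell markers (1 of 5, 5.96 to 5.99 and 6.18 to 6.37), neutrophil markers (2 of 5, 5.28 to 5.34 and 5.56 to 6.01) and cholangiocyte markers (1 of 4, 6.35 to 6.56 and 6.74 to 6.87). With the labelled double knockout 0 of the NK cell, 0 of the T cell, 1 of the neutrophil and 1 of the cholangiocyte markers were called higher than wild type by limma, and at an unadjusted p under 0.05 1 NK cell and 0 T cell markers were. Its array means also lay above wild type without overlap for NK cell (5.12 to 5.20), neutrophil (5.44 to 5.61) and, narrowly, cholangiocyte markers (6.564 to 7.05, wild type up to 6.557). Those of T cell markers overlapped wild type (5.94 to 6.14). The part of these cell types in the results below was not tested, and in bulk tissue fewer cells of a type and less RNA per cell cannot be told apart.

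Against wild type, 6 receptors and 1 ligand rose in the NEMO knockout, and no member fell. The members that rose were the death receptors Tnfrsf10b, Tnfrsf21 and Tnfrsf1a, the TRAF-binding receptors Tnfrsf12a, Tnfrsf11a and Tnfrsf14, and 1 ligand, Tnfsf13b. A member is called here when the limma test has an adjusted p (Benjamini-Hochberg over all probe sets tested) under 0.05. By that rule 7 of 41 members (17.1%) were higher and 0 lower, where 7.68% of all probe sets were called, 5.66% higher and 2.02% lower. By role these were 1 of 15 ligands, 3 of 7 death domain receptors, 3 of 15 TRAF-binding receptors and 0 of 4 decoy or other receptors; the difference between roles was not tested. Calls depend on brightness: 6 of the 17 members brighter than the median probe set were called (35.3%), where 12.9% of all probe sets in that range were, and 1 of the 24 dimmer ones, where 2.50% were.

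**Figure D1:**
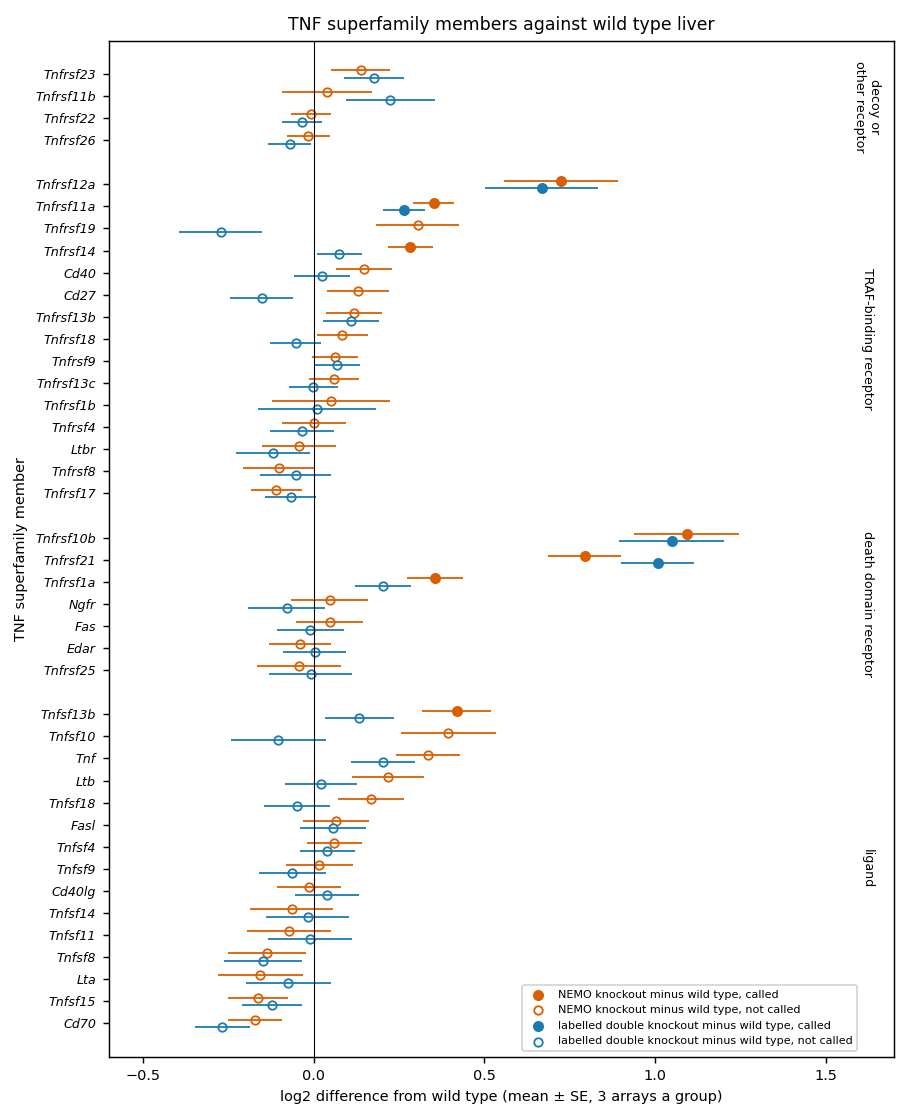
Difference in log2 signal from wild type, mean ± SE with 3 arrays a group, for the 41 members grouped by role. Orange marks the NEMO knockout and blue the labelled double knockout, and filled points are members called at an adjusted p under 0.05. Tnfrsf10b, Tnfrsf21 and Tnfrsf12a lie farthest to the right in both comparisons, and most ligands lie near 0.

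Promoter windows of 3 raised members and of Ltb, a ligand that was not called, are printed to show what these stretches hold. Each is the 250 bases before the annotated start in RefSeq on build GRCm38.p6, read 5′ to 3′ on the gene's strand. Capitals mark a GC box, GGGCGG on either strand, or in Ltb the only match to the NF-kB consensus, on either strand. The windows are at chr1:105780473-105780722 (plus strand, Tnfrsf11a), chr17:23677450-23677699 (minus strand, Tnfrsf12a), chr17:43016305-43016554 (plus strand, Tnfrsf21) and chr17:35194257-35194506 (plus strand, Ltb).
Tnfrsf11a: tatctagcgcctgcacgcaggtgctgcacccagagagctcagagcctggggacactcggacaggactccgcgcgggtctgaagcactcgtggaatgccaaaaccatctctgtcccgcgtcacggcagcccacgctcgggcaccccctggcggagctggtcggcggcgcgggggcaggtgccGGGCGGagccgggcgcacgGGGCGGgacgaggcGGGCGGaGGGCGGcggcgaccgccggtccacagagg
Tnfrsf12a: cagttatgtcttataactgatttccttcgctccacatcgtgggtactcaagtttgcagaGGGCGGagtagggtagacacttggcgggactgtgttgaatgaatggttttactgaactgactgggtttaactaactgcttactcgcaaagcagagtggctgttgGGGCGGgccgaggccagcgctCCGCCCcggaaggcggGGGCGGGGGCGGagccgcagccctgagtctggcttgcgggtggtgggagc
Tnfrsf21: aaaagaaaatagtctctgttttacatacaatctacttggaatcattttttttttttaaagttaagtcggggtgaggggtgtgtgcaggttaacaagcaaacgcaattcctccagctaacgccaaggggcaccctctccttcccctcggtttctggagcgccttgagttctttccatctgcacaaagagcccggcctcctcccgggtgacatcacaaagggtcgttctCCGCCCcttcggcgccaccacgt
Ltb: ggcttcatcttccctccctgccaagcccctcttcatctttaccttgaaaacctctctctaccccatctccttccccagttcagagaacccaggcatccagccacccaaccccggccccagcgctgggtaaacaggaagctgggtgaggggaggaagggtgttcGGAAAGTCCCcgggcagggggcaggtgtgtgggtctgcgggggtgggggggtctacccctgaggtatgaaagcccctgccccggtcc
The Tnfrsf12a window holds 5 GC boxes, with 1 adjoining pair, the Tnfrsf11a window 4 and the Tnfrsf21 window 1. Their GC content was 58.8%, 73.6% and 50.4%, against a median of 52.4% over all promoters. The Ltb window holds GGAAAGTCCC 87 bases before the start. Of the members, 32 matched the promoter table, with 36 windows between them. The NF-kB consensus occurred in 3 of these 36 (Ltb, Tnfrsf8 and Tnfrsf9, none of them called), and in 3.90% of all 32851 windows of the same length. The AP-1 motif TGANTCA occurred in 5 of 36 against 6.75%, the p53 half-site in 2 of 36 (Fasl and Tnfsf13b) against 7.13%, and the GC box in 15 of 36 against 32.7%. The 3 raised members shown hold no match to the NF-kB, AP-1 or p53 motif in these windows, nor do the raised Tnfrsf1a and Tnfrsf14. Tnfsf13b, also raised, holds an AP-1 and a p53 match in a window. Tnfrsf10b, the member with the largest rise, is among the 9 without a window. A match is a stretch of letters, not a shown binding site.

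Among the death domain receptors, Tnfrsf10b, the mouse receptor for the death ligand TRAIL, rose the most. Its log2 signal (probe set 10416230) was 6.40, 6.56 and 6.77 in wild type, 7.49, 7.90 and 7.62 in the NEMO knockout, and 7.32, 7.74 and 7.81 in the labelled double knockout. Every knockout array lay above every wild type array. The NEMO knockout was 2.13-fold higher (log2 difference 1.09, SE 0.15, limma adjusted p = 0.0027) and the labelled double knockout 2.07-fold higher (1.05, SE 0.15, adjusted p = 0.00287). These 2 comparisons share the wild type arrays.

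Tnfrsf21, or DR6, a death domain receptor known from neurons and T cells, showed the same separation. Its signal (probe set 10445241) was 8.47, 8.83 and 8.66 in wild type, 9.40, 9.40 and 9.56 in the NEMO knockout, and 9.51, 9.77 and 9.71 in the labelled double knockout. The NEMO knockout was 1.73-fold higher (0.79, SE 0.11, adjusted p = 0.00215) and the labelled double knockout 2.01-fold higher (1.01, SE 0.11, adjusted p = 0.000598). Between the knockout groups the highest NEMO knockout array exceeded the lowest labelled double knockout array, and the difference of 0.21 (95% interval -0.03 to 0.45) did not pass the test (adjusted p = 0.698).

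Tnfrsf1a, the main receptor for soluble TNF, read 10.03, 10.05 and 10.08 in wild type, 10.35, 10.45 and 10.42 in the NEMO knockout and 10.16, 10.43 and 10.17 in the labelled double knockout (probe set 10541895). All NEMO knockout arrays lay above wild type by a small margin, and the labelled double knockout arrays lay between, with replicate 2 at the NEMO knockout's level. The NEMO knockout was 1.28-fold higher (0.35, SE 0.08, adjusted p = 0.0284), a call lost without any one of the wild type arrays (adjusted p = 0.0907, 0.0796 and 0.0697 without replicates 1, 2 and 3) and without NEMO knockout replicate 2 or 3 (0.0915 and 0.0929). Median centring also ended this call. The labelled double knockout did not pass the test against wild type (0.20, 95% interval 0.02 to 0.39, adjusted p = 0.187).

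Fas, the receptor for FAS ligand and a classic death receptor of hepatocytes, read 7.86, 7.71 and 7.81 in wild type, 7.72, 8.08 and 7.72 in the NEMO knockout and 7.80, 7.77 and 7.78 in the labelled double knockout. Only NEMO knockout replicate 2 stood above the wild type range. The NEMO knockout minus wild type difference was 0.05 (95% interval -0.17 to 0.27, adjusted p = 0.844), and its sign turned under requantiled and median-centred values. Its ligand Fasl, made mainly by T and NK cells, read 4.68, 4.64 and 4.57 in wild type, 4.89, 4.47 and 4.72 in the NEMO knockout and 4.66, 4.68 and 4.72 in the labelled double knockout, and the groups overlapped (0.06, 95% interval -0.15 to 0.28, adjusted p = 0.769; negative with array weights). The other death domain receptors, Ngfr, Edar and Tnfrsf25, were not called in any comparison.

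Among the TRAF-binding receptors, Tnfrsf12a, the TWEAK receptor FN14 known from liver progenitor cells and regeneration, rose the most. Its signal (probe set 10448307) was 7.55, 7.58 and 7.52 in wild type, 8.13, 8.71 and 7.97 in the NEMO knockout, and 8.11, 8.16 and 8.38 in the labelled double knockout. The wild type arrays were tightly grouped and every knockout array lay above them. The NEMO knockout was 1.65-fold higher (0.72, SE 0.17, adjusted p = 0.0283) and the labelled double knockout 1.59-fold higher (0.67, SE 0.17, adjusted p = 0.0358). The first call was lost without any one of the wild type arrays (adjusted p = 0.08, 0.0772 and 0.0916 without replicates 1, 2 and 3). It was also lost with the groups compared fitted alone and with all probe sets of the table fitted. The second call was lost without any one array of either group compared: 0.0945, 0.0872 and 0.108 without wild type replicates 1, 2 and 3, and 0.0686, 0.0762 and 0.13 without labelled double knockout replicates 1, 2 and 3. It was also lost under median-centred values and with all probe sets of the table fitted.

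The joint probe set for Tnfsfm13, Tnfsf13 and Tnfsf12 covers TWEAK, the ligand of FN14, but cannot be assigned to it. It read 7.69, 7.66 and 7.84 in wild type, 7.99, 7.93 and 7.99 in the NEMO knockout and 8.11, 8.03 and 8.02 in the labelled double knockout, with no overlap between wild type and either knockout. The difference was 0.24 (SE 0.07, adjusted p = 0.0653) for the NEMO knockout and 0.32 (SE 0.07, adjusted p = 0.0179) for the labelled double knockout. Without wild type replicate 3 the first passed (0.0412). The second did not pass without wild type replicate 1 or 2 (0.0647 and 0.0583) or labelled double knockout replicate 1 or 3 (0.0632 and 0.0513).

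Tnfrsf11a, or RANK, the receptor for the osteoclast factor RANKL, read 6.57, 6.48 and 6.62 in wild type, 6.90, 6.94 and 6.88 in the NEMO knockout and 6.86, 6.81 and 6.80 in the labelled double knockout (probe set 10349051). The 3 groups did not overlap. The rise over wild type was small but well above the spread in the NEMO knockout (1.28-fold, 0.35, SE 0.06, adjusted p = 0.00763) and less so in the labelled double knockout (1.20-fold, 0.26, SE 0.06, adjusted p = 0.0255). The latter call was lost without wild type replicate 1 or 2 (0.0669 and 0.0746) and without labelled double knockout replicates 1, 2 or 3 (0.0846, 0.0617 and 0.0694). It was also lost under requantiled and median-centred values.

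Tnfrsf14, or HVEM, which binds LIGHT and the lymphocyte inhibitor BTLA, read 7.90, 7.87 and 7.94 in wild type, 8.27, 8.09 and 8.20 in the NEMO knockout and 7.93, 8.01 and 8.00 in the labelled double knockout (probe set 10519060). The NEMO knockout arrays were the highest, 1.22-fold above wild type (0.28, SE 0.07, adjusted p = 0.029). The call was lost without wild type replicates 1, 2 or 3 (0.0859, 0.0861 and 0.0618), NEMO knockout replicates 1 or 3 (0.0615 and 0.091) and labelled double knockout replicate 3 (0.0503). It was also lost under requantiled and median-centred values and with the groups compared fitted alone. The labelled double knockout differed from wild type by 0.07 (SE 0.07, adjusted p = 0.616).

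**Figure D2:**
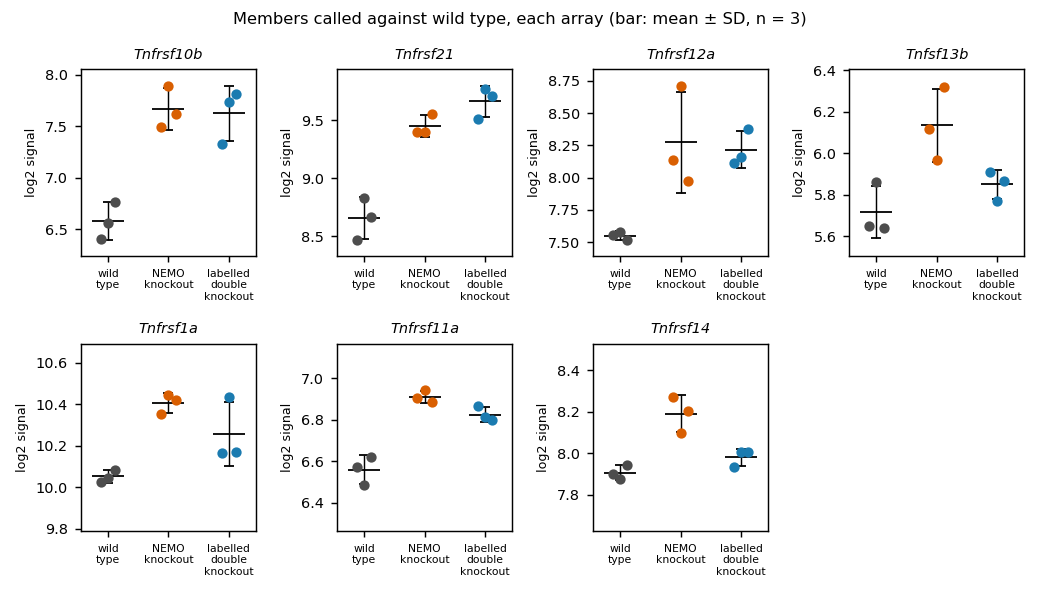
Log2 signal on each of the 9 arrays for the 7 members called against wild type, with the mean ± SD (n = 3) as bars; each panel has its own axis, which does not start at 0. All NEMO knockout arrays lie above all wild type arrays in the 7 panels, and for Tnfrsf14 and Tnfsf13b the labelled double knockout lies nearer to wild type.

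The remaining named TRAF-binding receptors were not called against wild type. Tnfrsf1b, the receptor that prefers membrane-bound TNF, read 8.49, 9.26 and 8.76 in wild type, 8.86, 8.85 and 8.96 in the NEMO knockout and 8.88, 8.66 and 9.01 in the labelled double knockout. The wild type arrays alone spanned all others, and the interval of the NEMO knockout difference reached from -0.34 to 0.44 (0.05, adjusted p = 0.908; below 0 after median centring). Ltbr, the lymphotoxin receptor, read 8.57, 8.37 and 8.56, then 8.37, 8.49 and 8.52, then 8.40, 8.58 and 8.17 in the same order of groups, which overlapped (NEMO knockout minus wild type -0.04, 95% interval -0.28 to 0.20, adjusted p = 0.872). Cd40, the costimulatory receptor of antigen-presenting cells, read 6.77, 6.68 and 6.71 in wild type, 6.99, 6.78 and 6.85 in the NEMO knockout and 6.87, 6.75 and 6.62 in the labelled double knockout. All NEMO knockout arrays of Cd40 lay above wild type, but the difference of 0.15 (95% interval -0.04 to 0.33) did not pass the test (adjusted p = 0.365).

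Among the ligands, Tnfsf13b, or BAFF, the B cell survival factor made by myeloid cells, was the only one called. It read 5.65, 5.86 and 5.64 in wild type, 6.12, 5.97 and 6.32 in the NEMO knockout and 5.91, 5.77 and 5.87 in the labelled double knockout (probe set 10570018). The NEMO knockout arrays were the highest, 1.34-fold above wild type (0.42, SE 0.10, adjusted p = 0.0352), while the labelled double knockout differed from wild type by 0.13 (SE 0.10, adjusted p = 0.541). The call was lost without wild type replicate 1 or 3 (0.116 and 0.118), NEMO knockout replicate 1 or 3 (0.0659 and 0.11) and labelled double knockout replicate 1 or 3 (0.0508 and 0.0584). It was also lost under median-centred values, with the groups compared fitted alone, with all probe sets of the table and with the replicate number as a block. Macrophage markers, given above, were higher in both knockout groups, and the 4 measured B cell markers had overlapping array means of 5.45 to 5.82, 5.61 to 5.87 and 5.56 to 5.76 in wild type, the NEMO knockout and the labelled double knockout.

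Tnf itself, the founding ligand and a product of activated macrophages, read 5.75, 5.54 and 5.36 in wild type and 5.82, 5.88 and 5.95 in the NEMO knockout. It read 5.75 on each of the 3 labelled double knockout arrays, a repeated value that the median polish of RMA can give (probe set 10450501). The NEMO knockout arrays lay above all others, yet the difference of 0.34 (95% interval 0.12 to 0.55) did not pass the test (adjusted p = 0.0661) unless wild type replicate 1, the highest of its group, was left out (0.44, adjusted p = 0.0177). Tnfsf10, or TRAIL, the ligand of Tnfrsf10b, read 7.03, 6.84 and 6.86 in wild type, 7.08, 7.21 and 7.61 in the NEMO knockout and 6.63, 6.97 and 6.81 in the labelled double knockout. Its NEMO knockout arrays also lay above wild type, with replicate 3 the farthest, and did not pass the test (0.39, 95% interval 0.08 to 0.71, adjusted p = 0.138).

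The lymphotoxin genes, which lie beside Tnf on chromosome 17, were not called. Lta read 5.71, 5.42 and 5.36 in wild type, 5.46, 5.42 and 5.14 in the NEMO knockout and 5.55, 5.46 and 5.25 in the labelled double knockout, with a NEMO knockout difference of -0.16 (95% interval -0.44 to 0.13, adjusted p = 0.548). Ltb, whose promoter window is printed above, read 6.02, 5.76 and 6.05 in wild type, 6.35, 6.08 and 6.05 in the NEMO knockout and 6.05, 5.96 and 5.88 in the labelled double knockout, with a NEMO knockout difference of 0.22 (95% interval -0.02 to 0.46, adjusted p = 0.296). Groups overlapped for both genes.

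The ligands Cd40lg, Cd70 and Tnfsf18 were dim and not called. Cd40lg, made by helper T cells, read between 4.04 and 4.41 on all arrays, the highest on labelled double knockout replicate 1 (NEMO knockout minus wild type -0.01, 95% interval -0.22 to 0.20, adjusted p = 0.961; positive under requantiled and cyclic loess values). Cd70, the ligand of CD27, read 5.13, 4.96 and 4.87 in wild type, 4.91, 4.76 and 4.79 in the NEMO knockout and 4.77, 4.68 and 4.71 in the labelled double knockout. The labelled double knockout arrays of Cd70 lay below all wild type arrays, with a difference of -0.27 (SE 0.08, adjusted p = 0.075). Tnfsf18, the ligand of GITR, read 3.97, 3.97 and 3.93 in wild type, 4.36, 3.97 and 4.05 in the NEMO knockout and 3.86, 3.89 and 3.97 in the labelled double knockout, and was not called (NEMO knockout difference 0.17, adjusted p = 0.38).

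The 4 decoy or other receptors were not called in any comparison. They are Tnfrsf11b, or osteoprotegerin, the soluble decoy for RANKL, with Tnfrsf22, Tnfrsf23 and Tnfrsf26, of which Tnfrsf22 and Tnfrsf23 are decoys for TRAIL in the mouse. Against wild type they differed by -0.02 to 0.14 in the NEMO knockout, and by -0.07 to 0.22 with the labelled double knockout, where Tnfrsf11b was the highest. Of all 41 members, 20 are given no values by array. Their differences lay between -0.16 (Tnfsf15) and 0.14 (Tnfrsf23) in the NEMO knockout against wild type, with none under an adjusted p of 0.345, and between -0.15 (Tnfsf8) and 0.22 (Tnfrsf11b) for the labelled double knockout, with none under 0.296.

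**Figure D3:**
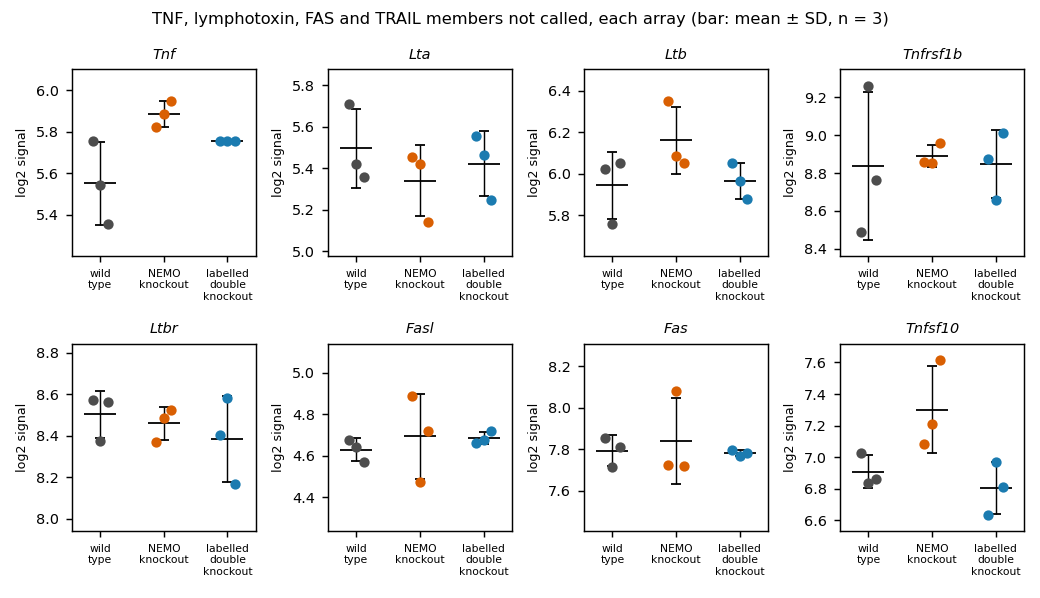
Log2 signal on each array for 8 TNF, lymphotoxin, FAS and TRAIL ligands and receptors that were not called, with the mean ± SD (n = 3) as bars; each panel has its own axis, which does not start at 0. The NEMO knockout arrays of Tnf and Tnfsf10 lie above wild type, while the groups overlap for Fas, Fasl, Lta, Ltb, Ltbr and Tnfrsf1b.

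Across all members, 10 of 41 (24.4%) had NEMO knockout arrays wholly above wild type, where 11.4% of all probe sets did, and 0 lay wholly below, where 11.8% did. At an unadjusted p under 0.05, 10 of 41 passed, all of them higher, where 20.3% of all probe sets passed in either direction. The members' median difference was 0.06 against -0.04 for all probe sets tested, and the 34 members not called ranged from -0.17 (Cd70) to 0.39 (Tnfsf10). Where each array was centred on its own median, the members' median became -0.003 and that of all probe sets -0.10, with 4 members called in place of 7, and the share of all calls that were higher moved from 73.7% to 52.7%.

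Against wild type, the labelled double knockout had 4 of 41 members higher (9.76%) and 0 lower. The background was 9.32% of all probe sets called, 5.81% higher and 3.51% lower, so the members' share was near that of all probe sets. The 4 were Tnfrsf10b, Tnfrsf21, Tnfrsf11a and Tnfrsf12a, all receptors and all also called in the NEMO knockout, which shares its wild type arrays: 2 of 7 death domain receptors, 2 of 15 TRAF-binding receptors, 0 of 15 ligands and 0 of 4 decoy or other receptors. All 4 were among the 17 members brighter than the median (23.5%, where 15.7% of all such probe sets were called), and 0 of the 24 dimmer ones were called, where 2.93% were. At an unadjusted p under 0.05, 7 of 41 passed, 5 higher and 2 lower, where 21.0% of all probe sets did. The labelled double knockout arrays lay wholly above wild type for 5 members (12.2%), where 11.6% of all probe sets did, and wholly below for 4 (9.76%), where 13.5% did. The split depends on the scaling, since after requantiling it was 3 higher and 1 lower and after median centring 2 higher and 1 lower, the lower member being Cd70 (-0.26, adjusted p = 0.0399, and -0.33, adjusted p = 0.0236). The share of all calls that were higher moved from 62.3% to 44.1% after centring.

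Between the knockout groups, no member was called, where 0.197% of all probe sets were. At an unadjusted p under 0.05, 5 members were lower in the labelled double knockout (7.46% of all probe sets passed it, in either direction), and no other tool was run. The direction was uneven: 8 of 41 members (19.5%) had labelled double knockout arrays wholly below the NEMO knockout, where 5.75% of all probe sets did, and 0 lay wholly above, where 4.99% did. These 8 were Tnfrsf19, Tnfsf10, Tnfrsf14, Cd27, Tnfsf13b, Tnfrsf11a, Tnfrsf18 and Tnf. Of these, Tnf lies within 10 Mb of Cdkn1a on chromosome 17, as do the members Tnfrsf12a, Ltb and Lta. Chromosome 17 also holds Tnfrsf21, Tnfsf9, Cd70 and Tnfsf14. The part of sequence near Cdkn1a carried over from the p21-/- line in their values was not tested. In all, 28 members had a negative difference and 13 a positive one, with a median of -0.04 against 0.003 for all probe sets. Outside the 41, the family genes Eda and Relt were not called in any comparison. Between the knockout groups they differed by 0.004 and -0.03 (limma adjusted p = 0.998 and 0.982). The family receptor Eda2r, also outside the 41, behaved otherwise. It read 5.07, 4.89 and 4.91 in wild type, 6.57, 6.75 and 6.64 in the NEMO knockout, then 7.18, 7.57 and 7.35 in the labelled double knockout, with no overlap between any 2 groups. It was 3.24-fold (adjusted p = 0.000112) and 5.32-fold (adjusted p = 1.38e-05) above wild type, more than any member, and higher in the labelled double knockout than in the NEMO knockout by 0.72 (SE 0.10, adjusted p = 0.0348).

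Tnfrsf19, or TROY, a receptor known from stem and progenitor cells, had the largest difference of these. It read 7.23, 7.27 and 7.23 in wild type, 7.65, 7.23 and 7.76 in the NEMO knockout and 6.92, 6.96 and 7.02 in the labelled double knockout. NEMO knockout replicate 2 lay at the wild type level while the other two stood above it, and all labelled double knockout arrays lay below wild type. The labelled double knockout was 1.49-fold lower than the NEMO knockout (-0.58, SE 0.12, limma adjusted p = 0.144). Without NEMO knockout replicate 2 this difference passed the test (-0.74, adjusted p = 0.0281), as did NEMO knockout against wild type (0.46, adjusted p = 0.00878, from 0.30 and 0.19 with all arrays) and the labelled double knockout against wild type (adjusted p = 0.0337, from -0.27 and 0.234). The last difference also passed with all arrays of those 2 groups fitted alone (-0.27, adjusted p = 0.0296).

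The TRAIL ligand Tnfsf10, whose arrays are given above, was lower by 0.50 on the log2 scale in the labelled double knockout than in the NEMO knockout (-0.50, SE 0.14, adjusted p = 0.344). Its receptor Tnfrsf10b differed between these groups by only -0.04, with an interval from -0.39 to 0.30 (adjusted p = 0.98). Tnfrsf14 (-0.21, SE 0.07, adjusted p = 0.453) and Tnfsf13b (-0.29, SE 0.10, adjusted p = 0.547) were nearer to wild type in the labelled double knockout. Cd27, a costimulatory receptor of T, NK and B cells, read 5.66, 5.84 and 5.77 in wild type, 5.83, 5.92 and 5.91 in the NEMO knockout and 5.62, 5.43 and 5.77 in the labelled double knockout (-0.28, SE 0.09, adjusted p = 0.486). Array means of the 5 measured T cell markers were 6.18 to 6.37 in the NEMO knockout and 5.94 to 6.14 in the labelled double knockout, without overlap. Those of the 6 NK cell markers, 5.206 to 5.69 and 5.12 to 5.203, were apart only narrowly. Those of the 5 neutrophil markers overlapped, at 5.56 to 6.01 and 5.44 to 5.61. By gene, 1 T cell, 1 NK cell and 0 neutrophil markers had a higher mean in the labelled double knockout. Of all 55 marker genes measured, 0 were called by limma between the knockout groups, and 1 was higher and 6 lower at an unadjusted p under 0.05. Of all probe sets 7.46% passed the latter, in either direction. The part of these cell types in the members' differences was not tested.

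**Figure D4:**
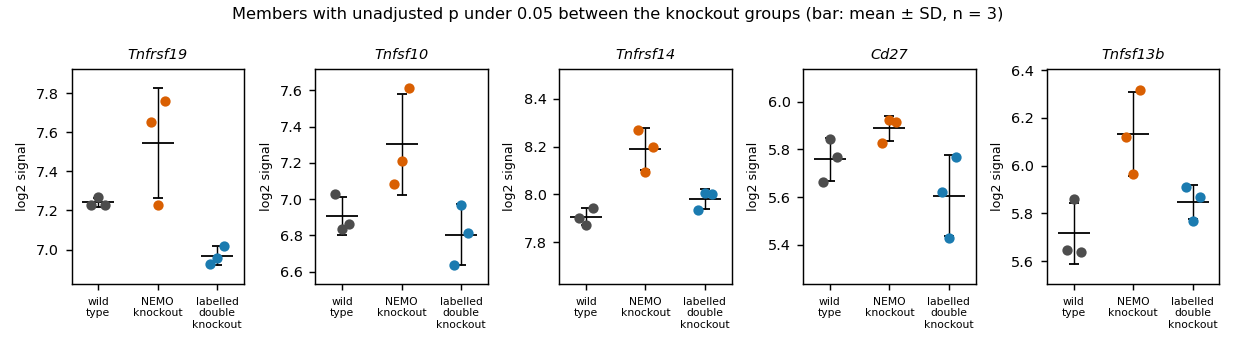
Log2 signal on each array for the 5 members with an unadjusted p under 0.05 between the knockout groups, with the mean ± SD (n = 3) as bars; each panel has its own axis, which does not start at 0. In each panel the labelled double knockout arrays lie below all NEMO knockout arrays, and for Tnfrsf19 NEMO knockout replicate 2 stands at the wild type level.

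Genes that act with these receptors were read from 5 lists with 73 measured genes. Between the knockout groups 0 of them were called by limma. At an unadjusted p under 0.05, 1 was higher and 12 lower in the labelled double knockout. Of all probe sets, 0.197% were called there and 7.46% passed the unadjusted test, in either direction. Of the 73, 17 were called against wild type with the NEMO knockout and 15 with the labelled double knockout. Both counts include Ikbkg itself. The shares of all probe sets were 7.68% and 9.32%, or 12.9% and 15.7% of those brighter than the median. Of the 6 measured genes of ligand shedding, 4 rose against wild type with the NEMO knockout alone, 3 with the labelled double knockout, and none fell (list medians 0.36 and 0.40, against -0.04 and -0.03 for all probe sets). Rhbdf1, a partner of the TNF-cleaving protease ADAM17, rose by 0.85 (SE 0.09, adjusted p = 0.00075) and 0.89 (SE 0.09, adjusted p = 0.000486). Its relative Rhbdf2 rose by 0.36 (adjusted p = 0.0493) and 0.53 (adjusted p = 0.00742), Timp3, an inhibitor of ADAM17, by 0.60 (adjusted p = 0.0225) and 0.64 (adjusted p = 0.0145), and the sheddase Adam10 by 0.37 in the NEMO knockout (adjusted p = 0.018). Calls in the NEMO knockout were lost for Rhbdf2 without any one array except labelled double knockout replicate 2, for Timp3 without wild type replicate 1 or 3 and for Adam10 without wild type replicate 1 or 2 and likewise without replicate 2 or 3 of the NEMO knockout, with adjusted p up to 0.152, 0.0858 and 0.0715 over the alternatives. Rhbdf2 was lost too with the replicate number as a block (0.079) and under requantiled and median-centred values. An intensity trend of the variance in limma, or fitting all probe sets of the table, also ended that call. In the NEMO knockout Adam10 was also lost under median-centred values, and Timp3 with the groups compared fitted alone. Timp3 was also lost in the labelled double knockout without wild type replicate 3 or its own replicate 1 (up to 0.0599).

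Of 15 measured death and survival effectors, 4 rose and 0 fell in the NEMO knockout, and 3 rose and 1 fell in the labelled double knockout (list medians 0.19 and 0.16). Mlkl, the executioner of necroptosis, read 6.41, 6.50 and 6.41 in wild type, 7.90, 7.88 and 8.06 in the NEMO knockout and 7.05, 7.68 and 7.51 in the labelled double knockout. It rose by 1.51 (SE 0.14, adjusted p = 0.000403) and 0.98 (SE 0.14, adjusted p = 0.00256). Zbp1, a sensor that can engage necroptosis, rose by 1.19 (SE 0.15, adjusted p = 0.00134) in the NEMO knockout, and the pro-apoptotic Bcl2l11 and Bak1 rose in both groups, Bcl2l11 by 0.68 and 0.63 and Bak1 by 0.63 and 0.35. Bak1 in the labelled double knockout was lost without wild type replicate 2 or 3, replicate 2 of the NEMO knockout or any one of its own arrays (adjusted p up to 0.146), and with the replicate number as a block (0.0714). That call was also lost under median-centred values and with all probe sets of the table fitted. Cflar, the inhibitor of caspase-8 at death receptors, read 8.75, 9.02 and 8.70 in wild type, 8.50, 8.49 and 8.53 in the NEMO knockout and 8.39, 8.37 and 8.19 in the labelled double knockout. It lay below wild type on every knockout array and passed the test only in the labelled double knockout against wild type (-0.51, SE 0.09, adjusted p = 0.00887).

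In the NF-kB arm, 1 of 14 measured genes rose and 1, Ikbkg, fell in each knockout group (list medians 0.07 and -0.07). The riser was Map3k14, the NF-kB-inducing kinase of the non-canonical arm used by RANK, FN14, CD40 and the lymphotoxin receptor. It read 6.01, 6.05 and 6.07 in wild type, 6.64, 6.87 and 6.88 in the NEMO knockout and 6.62, 6.62 and 6.76 in the labelled double knockout, and rose by 0.75 (SE 0.08, adjusted p = 0.000752) and 0.62 (SE 0.08, adjusted p = 0.00149). Of 21 receptor-proximal signalling genes, 1 rose in each group and 0 fell: Tnip1 in the NEMO knockout (0.35, SE 0.08, adjusted p = 0.0251) and Tnfaip3, which encodes the NF-kB inhibitor A20, in the labelled double knockout (0.41, SE 0.11, adjusted p = 0.0495). The medians of that list were -0.07 and -0.12. Tnip1 was lost without wild type replicate 2 or 3 and likewise without replicate 2 or 3 of the NEMO knockout (adjusted p up to 0.0952). Tnfaip3 was lost without any one array except labelled double knockout replicate 2 (up to 0.162) and with the replicate number as a block (0.0707). Both were also lost under requantiled and median-centred values and with the groups compared fitted alone. Tnfaip3 was lost with an intensity trend and with all probe sets of the table fitted as well. Ikbkg in the NEMO knockout was lost without wild type replicate 2 or 3 and likewise without replicate 1 or 3 of the NEMO knockout (up to 0.0729).

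Of 17 measured genes known as TNF targets, 4 rose and 2 fell in the NEMO knockout and 2 rose and 3 fell in the labelled double knockout (list medians 0.10 and 0.07). The adhesion gene Vcam1 rose by 2.30 (SE 0.23, adjusted p = 0.000577) and 2.80 (SE 0.23, adjusted p = 0.000198), and the acute-phase gene Lcn2 by 2.19 (SE 0.37, adjusted p = 0.0064) and 2.24 (SE 0.37, adjusted p = 0.00497). Ccl5 and Icam1 rose in the NEMO knockout by 1.09 and 0.49. Saa3, another acute-phase gene, fell by 1.17 (SE 0.15, adjusted p = 0.00159) and 0.96 (SE 0.15, adjusted p = 0.0037), the mitochondrial antioxidant gene Sod2 fell by 0.30 and 0.29, and Mmp9 fell by 0.53 in the labelled double knockout. Ccl5 was lost without wild type replicate 2 or 3 (adjusted p up to 0.0796), and Sod2 without wild type replicate 2 or 3 or replicate 2 or 3 of the knockout compared (up to 0.0646 and 0.0687). Mmp9 was lost without wild type replicate 1 or 3, replicate 2 of the NEMO knockout or any one labelled double knockout array (up to 0.136). It was also lost with cyclic loess, with the groups compared fitted alone and with all probe sets of the table fitted. Ccl5 was lost with the groups compared fitted alone too.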

How the data were processed

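Total liver RNA was measured on 9 single-channel arrays, 3 a group. The deposited table holds 1 log2 expression value per probe set and array, made by the authors with RMA (background correction, quantile normalisation, median polish), per the submitters' processing notes; its version, the build and any filter: not given in the sources used here. The log base was taken from RMA and the range of values. RMA pulls the arrays towards 1 distribution, which hides a change in total RNA, and 2 members have a value repeated on all arrays of a group. Over the tested probe sets the array medians still differed. They were 6.47 to 6.48 in wild type, 6.52 to 6.58 in the NEMO knockout and 6.53 to 6.55 in the labelled double knockout. NEMO knockout replicate 1 had the highest median and, where arrays were weighted, the lowest weight (0.41). Of 35556 probe sets, 6617 with identifiers below the first annotated one were taken as controls and left out, an inference. The other 28939 were fitted over all 9 arrays with limma 3.58.1 (lmFit and eBayes) in R 4.3.3, with Benjamini-Hochberg adjustment over all of them within each comparison; the script was tested on simulated data. Promoter motifs were searched on both strands in a RefSeq table.

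Members, gene lists and roles were chosen with earlier results of these data known. Members named were those called, the 5 largest differences of each comparison (the 3 smallest p where none was called) and 14 TNF, lymphotoxin, FAS, TRAIL, TWEAK and CD40 genes where measured; of the gene lists, up to 6 called genes each. Alternatives were 10 other settings and leaving out each of the 9 arrays. Arrays give no read depth, and their number limits the precision.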

Additional observations from a re-analysis of the deposited data

How the results depend on the processing

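The calls of Tnfrsf10b and Tnfrsf21 in both knockout groups against wild type, and of Tnfrsf11a in the NEMO knockout, held under all 19 alternatives (highest adjusted p 0.0316). Of the 19, the mean of a gene's probe sets could change nothing, since each member has 1 probe set. The other 6 member calls were each lost under at least 1 alternative, and none reversed. In the NEMO knockout, median centring ended the calls of Tnfrsf1a, Tnfrsf14 and Tnfsf13b, and requantiling that of Tnfrsf14. Fitting the 2 groups alone ended those of Tnfrsf12a, Tnfrsf14 and Tnfsf13b, and fitting all probe sets of the table those of Tnfrsf12a and Tnfsf13b. In the labelled double knockout, Tnfrsf11a and Tnfrsf12a were lost after centring, Tnfrsf11a after requantiling and Tnfrsf12a with all probe sets. In the NEMO knockout against wild type, 7 members were called, 4 with median-centred arrays, 4 with the 2 groups alone and 3 to 7 with 1 array left out. In the labelled double knockout against wild type the count was 4, and 2 to 5 with 1 array left out. Between the knockout groups it was 0, and 0 to 1 with 1 array left out, the 1 being Tnfrsf19 without NEMO knockout replicate 2. Differences near 0 that reversed in the NEMO knockout against wild type were those of Cd40lg (0.037 requantiled, 0.033 with cyclic loess), Fas (-0.0039 requantiled, -0.016 centred, -0.073 to 0.11 with 1 array left out), Fasl (-0.0049 with array weights, -0.032 to 0.17), Ltbr (-0.11 to 0.0029) and Tnfrsf1b (-0.011 centred, -0.12 to 0.26). Between the knockout groups, Tnfrsf10b ranged from -0.14 to 0.11 and Tnfrsf12a from -0.21 to 0.16 with 1 array left out. The cause of these changes was not tested. Of 32 calls among the pathway genes, 20 held under every alternative and 12 were lost under at least 1, among them Rhbdf2, Timp3, Adam10, Ccl5, Tnip1, Sod2 and Ikbkg in the NEMO knockout and Bak1, Mmp9, Sod2, Timp3 and Tnfaip3 in the labelled double knockout. Over all probe sets, the NEMO knockout had 2222 calls and 1382 without its replicate 3, and the labelled double knockout 2696 and 1601 without its replicate 3.

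The groups share replicate numbers in the labels, but same-numbered arrays did not deviate together in every pair (correlations of deviations from -0.12 to 0.39). Between the knockout groups same-numbered pairs were all positive (0.39, 0.08 and 0.25), and different-numbered pairs lay between -0.30 and 0.11. With wild type, same-numbered pairs lay between -0.12 and 0.18 and different-numbered pairs between -0.17 and 0.18. What the numbers stand for is not given in the labels. With the replicate number as a block, 6 members were called in the NEMO knockout, 5 in the labelled double knockout and 0 between them; Tnfsf13b was lost (adjusted p = 0.0609) and Cd70 gained in the labelled double knockout (0.0417). Among the pathway genes the block ended the calls of Rhbdf2 in the NEMO knockout (0.079) and of Bak1 and Tnfaip3 in the labelled double knockout (0.0714 and 0.0707), and no other. The paralogs Tnfrsf22, Tnfrsf23 and Tnfrsf26 lie together on chromosome 7 and may share signal.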
